A study of Homo sapiens with 7 samples.

Results

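The annexin genes of log-phase HCT116 cells are described here across transcription rate (TR), steady-state mRNA abundance (RA) and translation activity (TA). The members were taken by symbol, namely ANXA1, ANXA2, ANXA3, ANXA4, ANXA5, ANXA6, ANXA7, ANXA9, ANXA10 and ANXA11, and these 10 genes stood among 20056 genes with values. HCT116 is an established human colon carcinoma line, a near-diploid epithelial cell that was grown without serum in medium holding epidermal growth factor, insulin and transferrin. All 7 libraries came from this unmodified line, with no treatment or genotype compared. TR was measured by GRO-seq in 2 libraries, which captures nascent RNA labelled by a run-on in isolated nuclei and was counted over exons only. RA was measured by RNA-seq of mRNA in 3 libraries. TA was measured by polysome profiling in 2 libraries, for which the cells received cycloheximide before lysis and ribosome-bound mRNA was collected from a sucrose gradient. The comparisons address how far the output of transcription, the amount of mRNA and its loading on ribosomes differ for the same gene. RA over TR serves as a stability index and TA over RA as a translation index.

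Annexins are cytosolic proteins that bind negatively charged phospholipids in the presence of calcium, through a conserved core of repeats. They organise membrane domains, take part in exocytosis and endocytosis, and gather at plasma membrane lesions, and some of them also reach the cell surface. ANXA2 is an abundant protein of the intestinal epithelium. ANXA9 and ANXA10 are atypical, because calcium-binding sites of the core have been changed in them.

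Values are RPKM, reads counted over exons and divided by exon length and library size, so each is a share of a library per length. More annexin RNA per cell and less of other RNA therefore cannot be told apart, nor can RNA per cell and the number of cells that express a gene. The libraries held between 3391897 reads, in the TR replicate 1 library, and 30805391 reads, in the TA replicate 1 library. Of the colorectal epithelial markers, 7 of 10 reached 1 RPKM in mean RA, with KRT19 at 977 RPKM and EPCAM at 209.9 RPKM, whereas VIL1, CDX1 and LGALS4 stayed under 1 RPKM. Among markers of immune, endothelial and fibroblast cells, 2 of 9 reached 1 RPKM in mean RA, CD68 at 23.1 RPKM and COL1A1 at 11.5 RPKM. The others on that list lay at 0.127 RPKM or less in mean RA, with VWF the highest of them and PTPRC, PECAM1 and COL1A2 at 0.00399, 0.0110 and 0 RPKM. Summed over those 9 markers, the level ran from 75.2 to 76.0 RPKM for TR, from 22.3 to 47.3 RPKM for RA and from 41.3 to 49.3 RPKM for TA.

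In the GRCh37 reference, the build the values were made on, ANXA1 spans chr9:75766781-75785309 on the forward strand, ANXA2 chr15:60639333-60695082 on the reverse strand, and ANXA5 chr4:122589101-122618150 on the reverse strand. ANXA9 lies at chr1:150954725-150968110 and ANXA10 at chr4:169013688-169108887, both on the forward strand. The canonical transcripts have 12 to 16 exons, apart from ANXA6 with 26 exons and a coding length of 2019 bases, which holds a duplicated annexin core. UTRs made up between 25.7% of the transcript, in ANXA1, and 77.5%, in ANXA11. The ANXA11 transcript has 6734 bases, whereas the exon length recovered from its deposited values was 3629 bases. Its 77.5% therefore does not describe the exons that were counted.

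Start sites differed in sequence. RefSeq promoters of GRCh38.p14, from 250 bases before to 50 bases after the start, were matched for all 10 genes, as 14 promoters. The letters TATAAA, the core of a TATA box, were searched only in the 30 bases from -40 to -11 relative to the start. On the gene's strand they were found in 3 of the 14 windows, those of ANXA1, ANXA2 and ANXA10, against 2.34% of the same window in 35116 promoters. On the other strand 0 of the 14 windows held them, against 0.783% of all. The windows of these genes are shown because they held the match, with the ANXA5 window, which did not, for contrast and TATAAA in capitals.
ANXA1, chr9:73151825-73151854, forward strand: ttaaaatccTATAAAatcagaagcccaagt
ANXA2, chr15:60397997-60398026, reverse strand: tgtggcgggTATAAAagccccacccaggcc
ANXA10, chr4:168092497-168092526, forward strand: tgataactaagTATAAAtacagtatctcaa
ANXA5, chr4:121696991-121697020, reverse strand: gggccggggtggggccgctggcgtttccgt
The match started at -31 in ANXA1 and ANXA2 and at -29 in ANXA10. Over the whole 300 bases, the promoters of ANXA1 and ANXA10 had a GC content of 37.7% and 32.7% and 0 CpG dinucleotides each, whereas those of ANXA2 and ANXA5 had 76.0% and 76.3% with 32 and 36 CpG. The medians over all promoters were a GC content of 58.7% and 14 CpG.

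The family split into 8 genes with abundant mRNA and 2 genes near the limit of 1 RPKM. Annexin reads made up 0.0566% to 0.0766% of a TR library. They made up 0.211% to 0.275% of an RA library and 0.395% to 0.563% of a TA library, so the ranges did not overlap. ANXA1, ANXA2 and ANXA5 together held between 71.1% and 83.8% of the summed annexin RPKM in each library. ANXA2 was the highest member in each TR library, and ANXA1 was the highest in each RA and TA library as the values were deposited. With reads listed on 3 ANXA2 pseudogenes added, ANXA2 gave 612, 582 and 532 RPKM in RA and 1211 and 1046 RPKM in TA, which is above ANXA1 in RA replicates 1 and 3 and TA replicate 2.

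**Figure D1:**
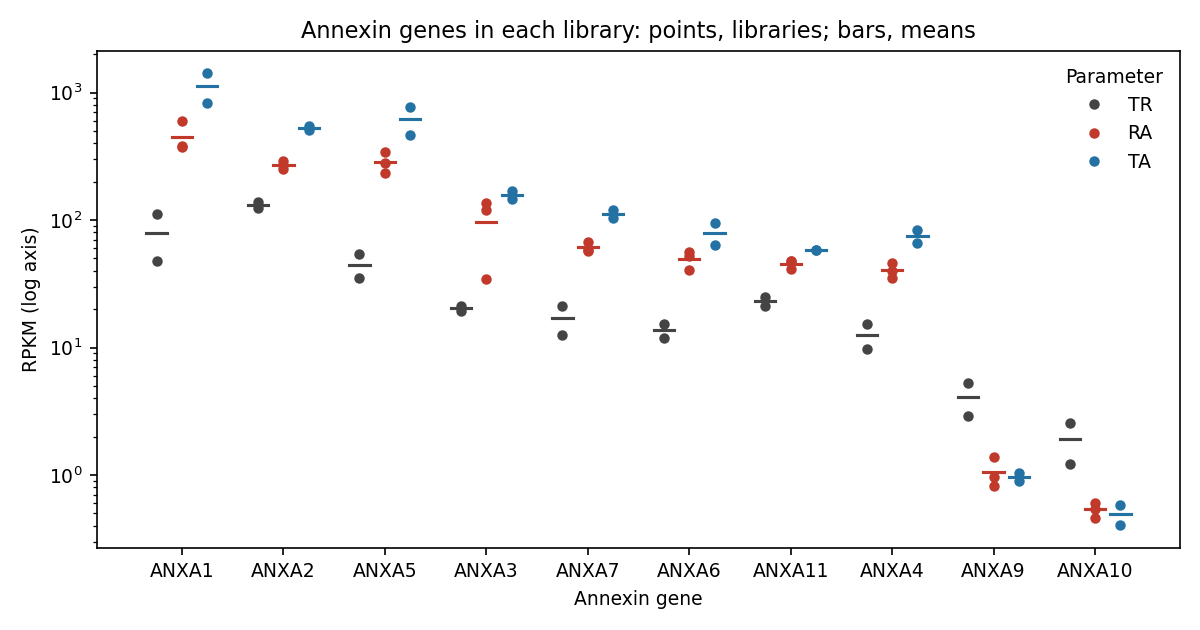
RPKM of the 10 annexin genes on a log axis, with each point a library and each bar the mean of TR (2 libraries), RA (3 libraries) or TA (2 libraries). For 8 genes the points rise from TR to RA to TA without overlap, while ANXA9 and ANXA10 sit highest in TR, an order that quantile normalization turns, and between 0.404 and 1.38 RPKM in RA and TA.

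ANXA1, a substrate of the EGF receptor kinase and an anti-inflammatory protein when secreted, gave 112 and 47.3 RPKM in the TR libraries. It gave 371, 597 and 378 RPKM in the RA libraries and 1414 and 831 RPKM in the TA libraries. Its groups did not overlap, and its TA replicate 1 value was 1.70 times that of replicate 2. By mean level ANXA1 ranked 530 in TR, 74 in RA and 21 in TA among 14305 expressed genes, those averaging 1 RPKM or more in some parameter.

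ANXA2, which forms a complex with S100A10 and binds plasminogen and its activator at the cell surface, gave 139 and 125 RPKM in TR. Its RA values were 290 (replicate 1), 270.5 (replicate 2) and 250.1 RPKM (replicate 3), and its TA values were 549 and 507 RPKM. The replicates lay closer together than those of ANXA1, with an SD of 7.35% of the mean in RA against 28.6%. The mean RA of ANXA2, 270.2 RPKM ± 19.9 (SD, n = 3), overlapped in its libraries with that of ANXA5.

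ANXA5, a phosphatidylserine-binding protein used as a probe of dying cells, gave 54.0 and 35.3 RPKM in TR. Its RA values were 283, 340.2 and 235 RPKM, and its TA values were 775 and 463 RPKM. From TR to RA the gene moved from rank 1566 to rank 140 among expressed genes.

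The middle of the family lay between 12.5 and 23.0 RPKM in mean TR. It was made up of ANXA3, known from neutrophils, ANXA4, an annexin of epithelial membranes, ANXA6, found on endosomes, ANXA7, named synexin for its part in granule fusion, and ANXA11, a partner of S100A6 and PDCD6. In TR, the order ANXA11, ANXA3, ANXA7, ANXA6 and ANXA4 had overlapping libraries at each step. Their mean RA ran from 40.5 RPKM ± 5.54 (SD, n = 3) for ANXA4 to 96.7 RPKM ± 54.7 (SD, n = 3) for ANXA3. In TA the order was ANXA3, ANXA7, ANXA6, ANXA4 and ANXA11, from 158 RPKM ± 16.1 (SD, n = 2) to 58.2 RPKM ± 0.696 (SD, n = 2). The libraries of ANXA6 and ANXA4 overlapped there, while the other neighbours did not. ANXA11 was thus highest of these 5 in mean TR and lowest of them in TA.

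ANXA3 differed between its RA replicates. Its RA was 34.4 RPKM in replicate 1, from 1129 reads, and 137 and 119 RPKM in replicates 2 and 3, from 4986 and 3957 reads. Its TR libraries gave 19.3 and 21.3 RPKM and its TA libraries 169 and 146 RPKM, so the spread stood in RA. PLAU, which encodes urokinase, also had its lowest RA in the replicate 1 library, at 17.3 RPKM against 63.3 and 39.1 RPKM. Whether that library differed in its cells or in its preparation was not tested.

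ANXA9 and ANXA10, the atypical members, stood apart from the others in each parameter. ANXA9 gave 2.91 and 5.26 RPKM in TR, from 18 and 54 reads. It gave 1.38, 0.973 and 0.827 RPKM in RA, from 51, 40 and 31 reads, and 1.03 and 0.905 RPKM in TA. ANXA10, known from the gastric mucosa, gave 1.22 and 2.58 RPKM in TR, from 6 and 21 reads. Its RA was 0.545, 0.460 and 0.605 RPKM, from 16, 15 and 18 reads, and its TA was 0.404 and 0.586 RPKM. For both genes the TR libraries lay above the RA libraries, at depths of 6 to 54 reads, where counting error is large. Reads on such genes carry no molecular identifiers, so their counting error is the smallest error they can have. ANXA10 entered the expressed genes through TR alone, so it had to be higher in TR, and its lower RA and TA are given as a description. ANXA9 entered through TR and RA.

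RA was compared with TR to see how far steady-state mRNA departed from transcription. In limma's fit over 14305 genes with Benjamini-Hochberg adjustment, 8 of the 10 members were called higher in RA and 2 lower, where the lower call of ANXA10 follows in part from its entry through TR alone and supports nothing. Over all genes 19.2% were called higher and 48.0% lower. The differences are on the log2(RPKM + 0.1) scale. Their median was 1.78 over the members and -0.58 over all genes, so a member at 0 would still stand above the median gene. All genes include those that, like ANXA10, entered through TR alone and had to be lower in RA. Over the 10825 genes with 1 RPKM in each parameter the median was -0.17, with 2632 called higher and 3656 lower. The members' libraries did not overlap in all 10 cases, 8 higher and 2 lower, where 24.3% and 54.9% of all genes did not overlap in those directions.

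ANXA5 had a log2 difference of 2.69 (SE 0.32, adjusted p = 0.00013 in limma) and ANXA1 of 2.59 (SE 0.44, adjusted p = 0.0010). They lay at percentiles 99.4 and 99.3 of all genes, and that of ANXA5 was 6.45-fold. The value of ANXA1 was 3.21 without TR replicate 1 and 1.97 without TR replicate 2. ANXA3 stood at 2.02 (SE 0.53, adjusted p = 0.0096), and its call was lost without TR replicate 1 (adjusted p = 0.10) or without TR replicate 2 (adjusted p = 0.093). Without RA replicate 1, its low library, the difference was 2.65. ANXA7, ANXA6 and ANXA4 followed at 1.89, 1.86 and 1.71, with adjusted p of 0.00019, 0.00022 and 0.00032 in limma.

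The smallest rises were those of ANXA2, at 1.03 (SE 0.21, adjusted p = 0.0030 in limma), and ANXA11, at 0.98 (SE 0.16, adjusted p = 0.00090), 2.05-fold and 1.97-fold. The place of ANXA2 depends on how reads shared with its pseudogenes are assigned, since with their reads added its difference was 1.84, above that of ANXA4. As deposited, ANXA2 was no longer called after quantile normalization, where its difference was 0.40 (adjusted p = 0.12 in limma). ANXA9 was lower in RA, at -1.82 (SE 0.33, adjusted p = 0.0014 in limma), but quantile normalization turned it to 0.77. The value of ANXA10, given with no test, was -1.57. Quantile normalization turned it to 1.62, where it was called higher (adjusted p = 0.0019 in limma). Without that normalization, ANXA9 and ANXA10 stood at -1.24 and -0.99 relative to the median gene, at percentiles 27.3 and 30.7 of all genes. ANXA1 and ANXA5 stood at 3.17 and 3.27 relative to it.

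**Figure D2:**
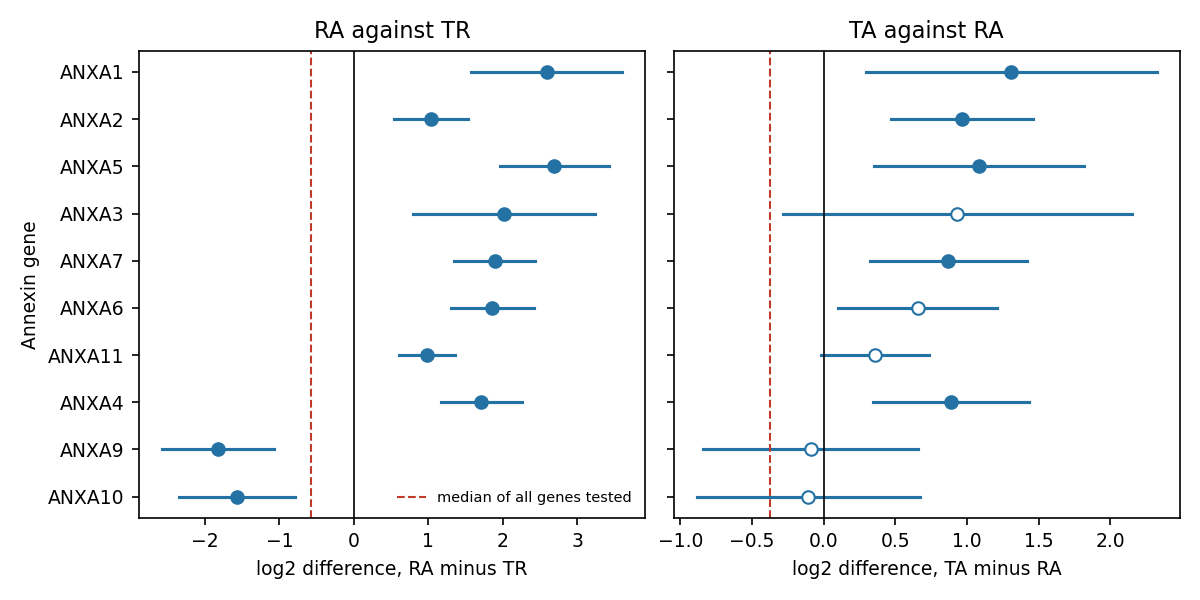
Log2 difference of RA minus TR (left) and TA minus RA (right) for each annexin gene, with 95% confidence intervals from limma, filled points for adjusted p under 0.05 and the dashed line at the median of all 14305 genes (-0.58 and -0.37). Of the 10 genes, 8 lie above 0 on the left with their intervals, ANXA9 and ANXA10 lie below 0 except after quantile normalization, and on the right 5 filled points lie between 0.87 and 1.31.

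TA was compared with RA to see how far polysome-bound mRNA departed from total mRNA. Here 5 of the 10 members were called higher, namely ANXA1, ANXA2, ANXA4, ANXA5 and ANXA7, and 0 were called lower in limma, also at an unadjusted p under 0.05. Over all genes 6.66% were called higher and 29.2% lower. The members' median log2 difference was 0.88 and that of all genes -0.37. The TA libraries lay above the RA libraries without overlap for 8 of the 10 members, against 14.4% of all genes, and below them for 0 of the 10, against 43.8%. The count of 5 did not withstand the alternatives. A block on the replicate number pairs RA and TA libraries whose deviations correlated at -0.56, and leaves RA replicate 3 without a partner. Under that block the count was 0, where 4 members had an unadjusted p under 0.05 in limma. It was also 0 after quantile normalization, where again 4 did. It was 0 without TA replicate 1, with 3 at an unadjusted p under 0.05 in limma, 1 without RA replicate 3, and 3 without TR replicate 1, TR replicate 2 or RA replicate 1.

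ANXA1 had the largest log2 difference of the family, 1.31 (SE 0.44, adjusted p = 0.0497 in limma), or 2.48-fold, just under the threshold. With pseudocounts of 0.01 and 1 its adjusted p was 0.053 in each case, and leaving out any library except RA replicate 2 gave between 0.061 and 0.27 in limma. ANXA5 followed at 1.08 (SE 0.32, adjusted p = 0.031 in limma) and ANXA2 at 0.97 (SE 0.21, adjusted p = 0.012). ANXA4 and ANXA7 stood at 0.89 and 0.87, with adjusted p of 0.023 and 0.025 in limma. Without TA replicate 1 these were 0.71 for ANXA5 (adjusted p = 0.21), 0.91 for ANXA2 (adjusted p = 0.080), 0.72 for ANXA4 (adjusted p = 0.14) and 0.76 for ANXA7 (adjusted p = 0.14), none of them called by limma.

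ANXA3, ANXA6 and ANXA11 had differences of 0.93, 0.66 and 0.36 that missed the threshold, with adjusted p of 0.20, 0.064 and 0.12 in limma. The 95% interval of ANXA3 ran from -0.29 to 2.15, and without RA replicate 1 its value was 0.30. When each library was centred on its median, ANXA6 and ANXA11 were called, at 1.16 and 0.86. ANXA9 and ANXA10 had differences of -0.09 and -0.11, with intervals from -0.84 to 0.66 and from -0.89 to 0.67, which turned to 0.41 and 0.39 after centring and to 0.59 and 0.64 after quantile normalization. These rest on 58 and 37 TA reads for ANXA9 and on 18 and 19 for ANXA10. A difference of either sign inside those intervals remains possible.

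From TR to TA, both steps together, 8 members were called higher and 2 lower, with ANXA10 again in the fit through TR alone, against 17.0% and 57.5% of all genes. The TA and TR libraries did not overlap for the same 10, against 22.7% of all genes higher and 65.5% lower. The log2 difference was 3.90 for ANXA1 (SE 0.48, adjusted p = 0.00013 in limma) and 3.77 for ANXA5 (SE 0.35, adjusted p = 2.36e-05), which are 14.9-fold and 13.7-fold. That of ANXA1 was 4.52 without TR replicate 1 and 3.27 without TR replicate 2. ANXA11 had the smallest rise, 1.34. ANXA9 was lower at -1.91, but not called after centring each library on its median (-0.74). After quantile normalization it turned to 1.36 and was called higher (adjusted p = 0.028 in limma). ANXA10 had a value of -1.68, given with no test, which was -0.51 after centring and 2.26 after quantile normalization. With quantile normalization all 10 members were called higher in TA than TR. This comparison shares its libraries with the other comparisons and adds no independent evidence.

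**Figure D3:**
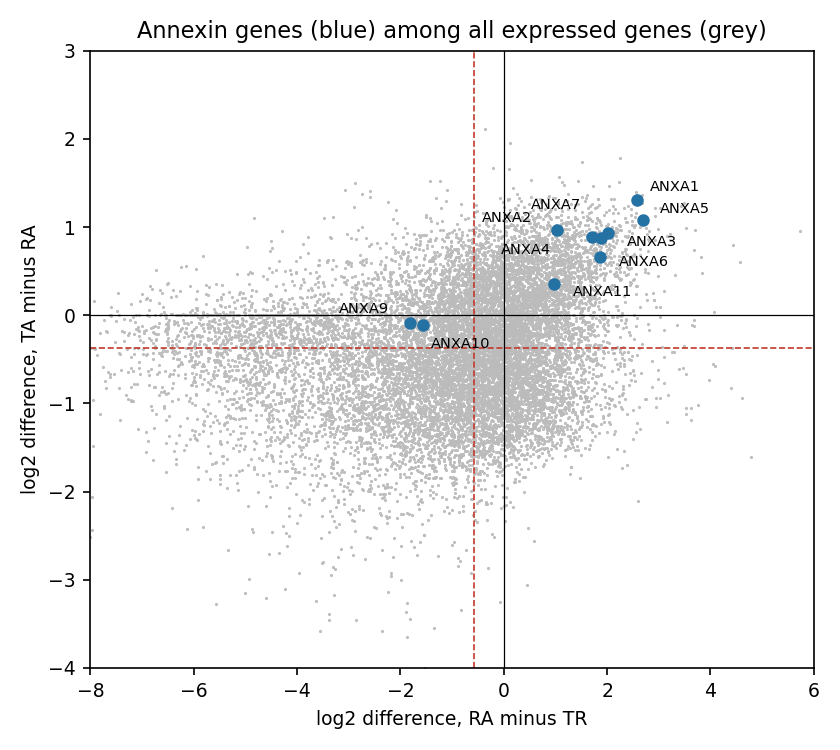
Log2 difference of RA minus TR (x axis) against TA minus RA (y axis) for the 10 annexin genes in blue and the other expressed genes in grey, with dashed lines at the medians of all genes and 53 genes beyond the axes. The axes share the RA libraries. Of the annexin genes, 8 lie above 0 on both axes, ANXA1 and ANXA5 farthest out at 2.59 and 1.31 and at 2.69 and 1.08, and ANXA9 and ANXA10 lie left of the others, a place they leave after quantile normalization.

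The spread between members grew from TR to TA. The highest member stood 114 and 48.5 times the lowest in TR, between 625 and 1297 times in RA, and 3501 and 1419 times in TA. The SD of log2 RPKM over the 10 members was 2.12 and 1.60 for TR, between 3.15 and 3.44 for RA, and 3.87 and 3.59 for TA. Leaving out ANXA9 and ANXA10, it was 1.28 and 1.23 for TR, between 1.32 and 1.49 for RA, and 1.70 and 1.54 for TA. Over all expressed genes the SD of log2(RPKM + 0.1) was 1.60 and 1.61 in TR, 2.74 to 2.77 in RA and 2.98 and 2.99 in TA. Each TA library thus had a wider spread than each TR library, both over the members and over expressed genes. The lowest member was ANXA10, which entered through TR alone, with 6 and 21 reads there. Expressed genes under 1 RPKM were few in TR and more common in RA and TA. DYSF, a membrane repair gene, stood at percentile 0.650 with 0.824 RPKM in mean TR and at 17.9 with 0.896 RPKM in mean RA. ANXA9 stood at 23.3 with 0.968 RPKM in mean TA. How much of the wider spread follows from this filter was not tested.

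ANXA2 has processed pseudogenes, copies of its spliced mRNA in the genome, and the table lists ANXA2P1, ANXA2P2 and ANXA2P3. Sequence over the boundary of exons 4 and 5 shows how they differ, and bases that differ from ANXA2 are in capitals. In ANXA2 the first 15 bases lie at chr15:60656628-60656642 and the last 15 at chr15:60653239-60653253 of GRCh37, with an intron between them, whereas each pseudogene carries the run without a break.
ANXA2, exons 4 and 5 joined, reverse strand: agaaggaccaaaaaggaacttgcatcagca
ANXA2P1, chr4:154229657-154229686, reverse strand: agaaggaccaaaaaggaacttgTatcagca
ANXA2P2, chr9:33624500-33624529, forward strand: agaaggaccaaaaaggaacttgcatcagca
ANXA2P3, chr10:66585557-66585586, forward strand: agaaggaccaCaaaggaacttAcatcagca
ANXA2P2 held 6 of the 12 ANXA2 junctions exactly and 11 with at most 2 mismatches, ANXA2P1 2 and 8, and ANXA2P3 1 and 6. Of the 1505 runs of 50 bases in the ANXA2 transcript, 38.2% occurred exactly in ANXA2P2, 4.72% in ANXA2P1 and 0.465% in ANXA2P3. With up to 2 mismatches 60.1% occurred in some pseudogene. The sequences compared were 926 bases for ANXA2P1, 1020 for ANXA2P2 and 1008 for ANXA2P3. The exon lengths recovered from the deposited values were longer, at 1343, 1310 and 1350 bases. Part of each counted pseudogene was thus not compared, and these shares and junction counts may be too low for it. ANXA1, ANXA3, ANXA4, ANXA5, ANXA6, ANXA9 and ANXA10 shared none of their runs of 50 bases with another annotated gene, while ANXA7 shared 2.55% and ANXA11 0.374%.

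Reads were listed on the pseudogenes in each library, and ANXA2 values are uncertain for that reason. Per ANXA2 read there were 0.315 and 0.133 pseudogene reads in TR. There were 1.11, 1.15 and 1.13 in RA, and 1.21 and 1.06 in TA. The ratio was thus lower in each TR library than in any RA or TA library. ANXA2P2 carried most of these reads, with a mean RA of 356 RPKM ± 24.9 (SD, n = 3) against 32.1 RPKM ± 24.0 (SD, n = 2) in TR. With the pseudogene reads added to ANXA2, an alternative chosen after seeing the data, its log2 difference of RA minus TR was 1.84 (SE 0.27, adjusted p = 0.00050 in limma) in place of 1.03. That of TA minus RA was 0.97 (adjusted p = 0.028 in limma), as for ANXA2 alone, and that of TA minus TR was 2.81. Reads from ANXA2 mRNA and from transcribed pseudogenes were not told apart here.

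**Figure D4:**
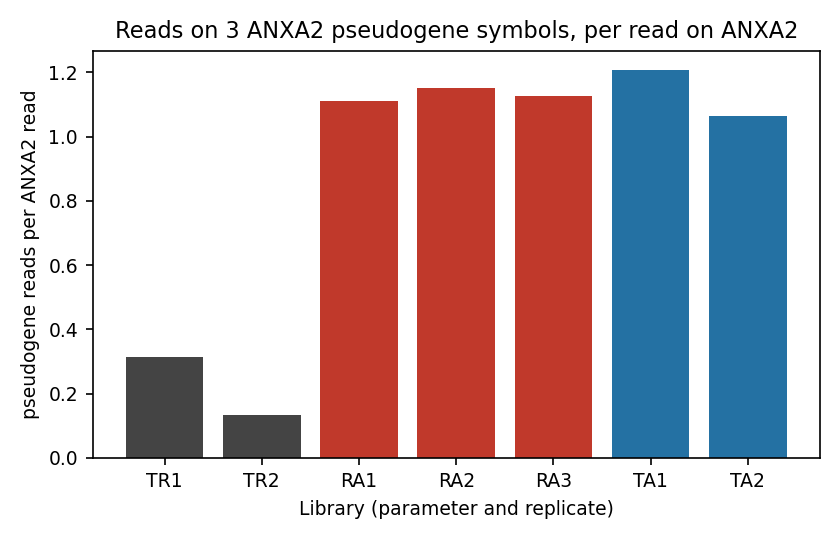
Reads listed on ANXA2P1, ANXA2P2 and ANXA2P3 together, divided by the reads listed on ANXA2, as a bar for each of the 7 libraries on an axis from 0. The TR libraries stand at 0.315 and 0.133 and the RA and TA libraries between 1.06 and 1.21.

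Proteins that annexins bind were taken as a list of 7 genes, all of them tested. In RA against TR 6 were called higher and 0 lower in limma, where 0 had an unadjusted p under 0.05 for lower. Over all genes tested 19.2% were higher and 48.0% lower, as for each list in this comparison. The median log2 difference of the partners was 1.36. S100A6, a partner of ANXA11, stood at 2.75 (adjusted p = 0.0017 in limma), S100A10, the partner of ANXA2, at 2.20 (adjusted p = 0.00012), and S100A11, the partner of ANXA1, also at 2.20 (adjusted p = 0.00030). PDCD6, S100A4 and SRI, a partner of ANXA7, had differences of 1.35, 1.36 and 1.03.

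In TA against RA the partners gave 0 calls higher in limma, 0 also at an unadjusted p under 0.05, and 1 lower, with a median of 0.23, where 6.66% of all genes were higher and 29.2% lower, as for each list in this comparison. S100A10 gave 330.4, 309.8 and 320.0 RPKM in RA and 265 and 373 RPKM in TA. Its groups overlapped, with a log2 difference of -0.03 (95% interval -0.62 to 0.57), where ANXA2 had 0.97. The difference between these differences was not tested. AHNAK, a giant scaffold protein that binds the complex of ANXA2 and S100A10, was the gene called lower. It gave 42.5, 44.7 and 21.1 RPKM in RA and 8.41 and 3.32 RPKM in TA, a log2 difference of -2.67 (SE 0.47, adjusted p = 0.0058 in limma).

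Receptors of ANXA1 were near 0. FPR1, FPR2 and FPR3, the formyl peptide receptors, held between 0 and 6 reads in any library and 0 of the 3 entered the fit. Of 5 genes of plasminogen activation, PLG was listed at 0 in each library and the other 4 entered the fit. PLAUR, the urokinase receptor, was called higher in RA than TR (0.73, adjusted p = 0.016 in limma) and PLAT, the tissue activator that ANXA2 binds, was called lower (-1.12, adjusted p = 0.0011). In TA against RA PLAUR (1.29, adjusted p = 0.0049 in limma) and PLAT (0.68, adjusted p = 0.029) were called higher, with 0 lower, also at an unadjusted p under 0.05. PLAU was not called in either comparison. The list's medians were 0.68 and 1.16.

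Genes that expose or read phosphatidylserine, the lipid that ANXA5 binds, numbered 8. In RA against TR 3 were called higher, ANO6 and TMEM30A among them, and 2 lower, XKR8 and PLSCR3, with a median of 0.46. PLSCR3 entered the fit through TR alone and so had to be higher there. Its log2 difference, given with no test, was -5.05, from 9.83 and 12.4 RPKM in TR to between 0.129 and 0.333 RPKM in RA. In TA against RA 1 was called higher, MFGE8, a secreted phosphatidylserine-binding protein, at 0.98 (adjusted p = 0.0073 in limma). There 3 were called lower, among them the scramblase ANO6 at -0.76 and the flippase ATP11A at -0.71, and the median was -0.44.

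Of 10 genes of plasma membrane repair, 7 were called higher in RA than TR and CHMP4A was called lower, against 19.2% and 48.0% of all genes, with a median of 0.76. CHMP4B, a subunit of the ESCRT filament, stood at 1.47, and the calpain subunits CAPN1, CAPN2 and CAPNS1 at 1.08, 1.27 and 1.21. In TA against RA 2 were called higher, against 6.66% of all genes, CAPNS1 at 0.84 (adjusted p = 0.014 in limma) and PDCD6IP, an adaptor that binds PDCD6, at 0.55 (adjusted p = 0.031), with 0 lower, also at an unadjusted p under 0.05. The median was 0.52. Of 7 other annexin symbols in the table, 4 entered the fit, and the remaining 3 held at most 1 read in any library. In RA against TR ANXA2P1, ANXA2P2 and ANXA2P3 were called higher (2.13, 3.70 and 3.52) with a median of 2.83 over the 4 genes. ANXA2R, at -4.07 and counted as lower, held 6 to 12 reads in RA and entered the fit through TR alone, so that it had to be higher in TR. In TA against RA ANXA2P1 and ANXA2P3 were called higher (1.07 and 0.99), with 0 lower in limma, also at an unadjusted p under 0.05, and a median of 0.98.

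**Figure D5:**
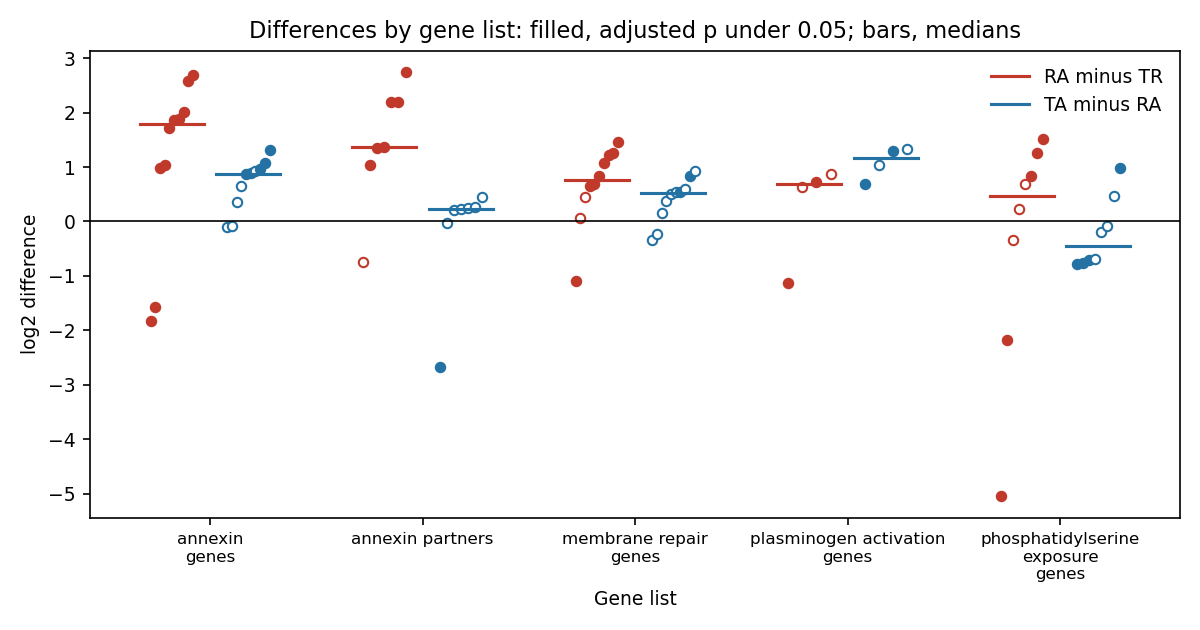
Log2 differences of RA minus TR (red) and TA minus RA (blue) for each gene tested in the annexin genes and 4 further lists, with filled points for adjusted p under 0.05 in limma and bars at the list medians. The annexin medians are 1.78 and 0.88, those of the partners 1.36 and 0.23, and the lowest points are PLSCR3 at -5.05 in RA minus TR and AHNAK at -2.67 in TA minus RA. The ANXA9 and ANXA10 points below 0 are above 0 after quantile normalization.

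By mean levels in TR, RA and TA together, the genes most like ANXA1, the member with the highest mean RA as deposited, were BSG, COX4I1, TIMP1, LDHB and PDIA4. Likeness was the Euclidean distance between mean log2 values of the 3 parameters over 14305 genes, and it was 0.34 for BSG and between 0.62 and 0.71 for the others. BSG had mean levels of 79.9, 385 and 896 RPKM in TR, RA and TA, where ANXA1 had 79.6, 449 and 1122 RPKM.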

How the data were processed

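HCT116 cells were assayed in 7 libraries, 2 of GRO-seq (TR), 3 of RNA-seq (RA) and 2 of polysome profiling (TA). The authors mapped reads to hg19 with TopHat, counted exonic reads with HTSeq and deposited RPKM values. The submitters' processing notes also name CASAVA. Tool versions, counting mode, strand setting and annotation are not given in the sources used here. With strand unknown, an antisense gene over 3.67% of ANXA7 exon bases could share its reads.

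Library sizes, exon lengths and reads were recovered from the RPKM values, which came out whole within 0.001 reads for 100% of genes. Members were tested by limma (version 3.58.1, R 4.3.3) on log2(RPKM + 0.1), with eBayes following the mean-variance trend, in 1 fit of the 7 libraries over the 14305 genes averaging at least 1 RPKM in some parameter, Benjamini-Hochberg adjusted at 0.05. The code was tested on simulated data. Of 200 genes changed by 2 on the log2 scale in a simulated RA against TR comparison, limma recovered 151 (75.5%). It called 6 unchanged genes among the 14305 simulated. Changes of that size can thus be missed. Python 3.11.15 and matplotlib 3.10.9 were used otherwise. Positions came from GENCODE 44 on GRCh37. Promoters came from RefSeq.

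Alternatives were pseudocounts of 0.01 and 1, other filters, other scalings, no trend, a replicate block and each library left out. Pseudogene reads added to ANXA2 were a further alternative, chosen after seeing the data. All members were named, together with called genes of the other lists, some of which are counted but not reported singly here. The members and lists were chosen with earlier results of these data known. The study calls the replicates biological. The labels do not name separate cultures, and p-values measure the spread between these libraries.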

Additional observations from a re-analysis of the deposited data

How the results depend on the processing

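Of the values for single members, 426 kept their direction and side of the threshold under the alternatives, 35 lost the call, 3 gained it and 10 changed sign. These counts include the setting with pseudogene reads added, which alters the log2 difference of ANXA2 alone. Leaving out a library of the group not compared also leaves the log2 difference unchanged. Part of the 426 could therefore hardly move. The count of members called lower in RA against TR went from 2 to 0 when 1 RPKM was required in each parameter, which leaves 8 members, and to 0 after quantile normalization. In TA against TR it went from 2 to 0 with the same filter, with centring and with quantile normalization. In none of these did a member have an unadjusted p under 0.05 for lower in limma. Quantile normalization turned ANXA9 and ANXA10 to 0.77 and 1.62 in RA against TR, 0.59 and 0.64 in TA against RA, and 1.36 and 2.26 in TA against TR. Under it the count called higher in RA against TR stayed at 8. There ANXA10 was called higher (adjusted p = 0.0019 in limma) and ANXA2 was no longer called. In TA against TR the count called higher went from 8 to 10 with quantile normalization. Centring turned ANXA9 and ANXA10 to 0.41 and 0.39 in TA against RA. With each library left out there, ANXA9 ranged from -0.24 to 0.10 (without RA replicate 1) and ANXA10 from -0.33 to 0.11 (without TA replicate 1). The count called higher in TA against RA went from 5 to 0 after quantile normalization, with 4 at an unadjusted p under 0.05 in limma, and ranged from 0 to 5 with each library left out. The cause was not tested.

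The replicate block also gave 0 in TA against RA, with 4 members at an unadjusted p under 0.05 in limma, where ANXA1 stood at 1.20 (adjusted p = 0.16) and ANXA2 at 0.91 (adjusted p = 0.085). These estimates equal those without RA replicate 3, which has no partner in the block. The block changed no other call of a member. Deviations of replicates 1 and 2 correlated at 0.15 between TR and RA, -0.56 between RA and TA and 0.02 between TR and TA over 10823 genes. The study split its cells among the assays, but no source says that an equal number means the same split, so the numbers were not taken to pair the samples.

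Over all genes, calls higher and lower in TA against RA went from 953 and 4173 to 2713 and 1404 with centring, 366 and 553 with quantile normalization, 109 and 1387 with the block, 200 and 1806 without TA replicate 1, and 457 and 2854 without TA replicate 2. In RA against TR they went from 2743 and 6870 to 5066 and 4814 with centring, 5676 and 4194 with quantile normalization, and 2632 and 3656 with 1 RPKM in each parameter. In TA against TR they went from 2439 and 8231 to 5436 and 5044, 5488 and 4293, and 2336 and 4935 under these same settings. Depth limits ANXA9 and ANXA10, at 6 to 58 reads a library.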
